A study of Mus musculus with 9 samples.

Results

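The comparison described here asks how stomach gland transcripts differ when 1 copy of the Arid1a gene can be deleted in cells that already carry an active Notch transgene. It takes 6 of the 9 RNA-Seq libraries of a study of Arid1a dosage in gastric tumours in mice. The 3 Arid1a_Het libraries have the genotype Atp4bCre; Rosa26NICD; Arid1aflox/+ and the 3 Ctrl libraries Atp4bCre; Rosa26NICD. Both groups therefore carry the Cre and the NICD transgene, the intracellular domain of a Notch receptor placed at the Rosa26 locus, and differ by the floxed Arid1a allele. Values of the 3 WT libraries are given beside them as a description of another genotype. Cre is driven by the promoter of Atp4b, the beta subunit of the parietal cell proton pump, so only cells that have made Cre, and their descendants, can recombine the alleles. All other cells of a gland preparation keep both Arid1a copies, and the share of recombined cells is not given in the sources used here. Age and sex are not given in the labels. RNA came from glands scraped off the corpus, the acid-secreting main part of the stomach, taken from tumour-bearing regions or the matching region of normal stomachs, and was selected for poly(A). Nothing in the labels states that replicate libraries are from different mice, and p-values therefore speak only of library-to-library spread, which may be technical.

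ARID1A is the DNA-binding ARID subunit of canonical BAF, a SWI/SNF complex that uses ATP to move nucleosomes and keep enhancers open. The complex is assembled around SMARCA4 or SMARCA2, and holds either ARID1A or its paralog ARID1B. ARID1A is among the genes most often inactivated in human gastric cancer, and mice lacking both copies in various epithelia have been used to model its loss. The corpus gland renews itself from an isthmus that feeds pit cells towards the surface and neck, parietal and chief cells towards the base, and Notch signalling is known to keep isthmus progenitors dividing.

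The table listed 18423 genes as FPKM (fragments for each kilobase of gene model, scaled by sequencing depth), at 22651385 to 29478481 reads per library. The test took the 11209 genes that reached 1 FPKM in 3 or more of the 9 libraries. In the corpus marker lists no gene was under 0.1 FPKM in all 6 libraries. Pepsinogen C (Pgc) stood at 12881, 80305 and 7049 FPKM in Arid1a_Het against 5474, 18662 and 6323 for Ctrl, and the proton pump subunit Atp4a at 689.9, 2557 and 184 and 90.5, 470.1 and 406, so these corpus markers were present in each library. Gastrin (Gast), a hormone of the antrum, was also present, at 48.9, 0.154 and 3139 FPKM in Arid1a_Het and 1386, 373 and 13.4 in Ctrl, and was highest in Arid1a_Het 3 and Ctrl 1, so antral tissue in these 2 cannot be told apart from a change in gastrin. Arid1a_Het 2 stood apart on the first principal component of the 9 libraries, at 21.75 against -16.37 and -31.22 in the others of its group and -29 to -44.06 in Ctrl, and Pgc made up 17.93% of all its FPKM against 1.49% to 4.91% in the other 5. Arid1a_Het 3, entered in GEO later than the rest, stood apart in defence and inflammatory genes, described with those genes. In a bulk preparation, fewer cells of a type and less RNA per cell cannot be told apart.

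Arid1a itself was measured at 8.94, 5.897 and 6.96 FPKM with the floxed allele, at 14.9, 13.3 and 16.2 in Ctrl libraries and at 13.5, 7.79 and 11.97 in WT (chromosome 4, 133679008 to 133756769, minus strand, GRCm38). Every Arid1a_Het library was below every Ctrl library, and 1 of the WT libraries lay between the levels of Arid1a_Het 1 and 3. The mean ratio of Arid1a_Het to Ctrl was 0.490, and it lay between 0.434 and 0.537 when any 1 of the 6 libraries was left out. The exact two-sided permutation test gave p = 0.1, the smallest value that 3 against 3 libraries allow, and the test across all genes (limma) gave log2 change -0.95, SE 0.22, adjusted p = 0.2991. The deposited value covers the whole gene and does not read the floxed exons apart, so it is a limited check of the labels.

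The BAF subunits were spread around a small difference (the plot of Arid1a and the BAF subunits). The list holds Arid1a itself, the gene that the genotype alters, so the counts and the median include it. Of 25 subunits tested 0 passed at an adjusted p under 0.05, against 0.00892% of all genes that passed as lower and 0% as higher. All 3 Arid1a_Het libraries were below all 3 Ctrl libraries for 13 of the 25, against 22.2% of all genes, and above them for 0, against 2.41%. After median-ratio scaling, which sets the median gene of each library level, 7 of 25 were below, against 9.98% of all genes. The list median was 0.20 below the median of all genes on the log2 scale, which was itself -0.16, and 20 of the 25 subunits were below that median. Without Arid1a_Het 2 the median relative to all genes was -0.12. Arid1a had the lowest log2 change of the 25.

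Smarcd1, a core accessory subunit, stood at 3.797, 3.08 and 3.34 FPKM in Arid1a_Het and 5.51, 4.97 and 5.57 in Ctrl (log2 change -0.53, SE 0.15, adjusted p = 0.3831). Brd9, the bromodomain subunit of the non-canonical complex, stood at 12.7, 8.87 and 11.9 and 19.2, 16.4 and 15.6 (log2 change -0.58, SE 0.20, adjusted p = 0.397). The groups did not overlap for either gene, nor for Ss18l1, a subunit related to SS18 (1.55, 1.07 and 1.09 against 2.17, 1.93 and 2.18), or Arid2, the ARID subunit of the polybromo complex (4.75, 3.96 and 5.302 against 6.53, 6.14 and 6.74). The paralog Arid1b stood at 6.46, 4.04 and 4.41 FPKM in Arid1a_Het and 7.37, 6.82 and 5.73 in Ctrl, with overlapping groups (log2 change -0.37, SE 0.26, adjusted p = 0.565). Smarca4, the ATPase, had the highest read sum of the list and differed little, at 47.4, 40.5 and 41.4 against 49.4, 48.2 and 47.8 FPKM (log2 change -0.17, SE 0.16). That value changed sign with median-ratio scaling, to 0.048. Smarcd3, the only member with a log2 change above 0.1, stood at 1.72, 4.05 and 0.934 and 1.16, 1.75 and 0.947 FPKM and overlapped.

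**Figure D1:**
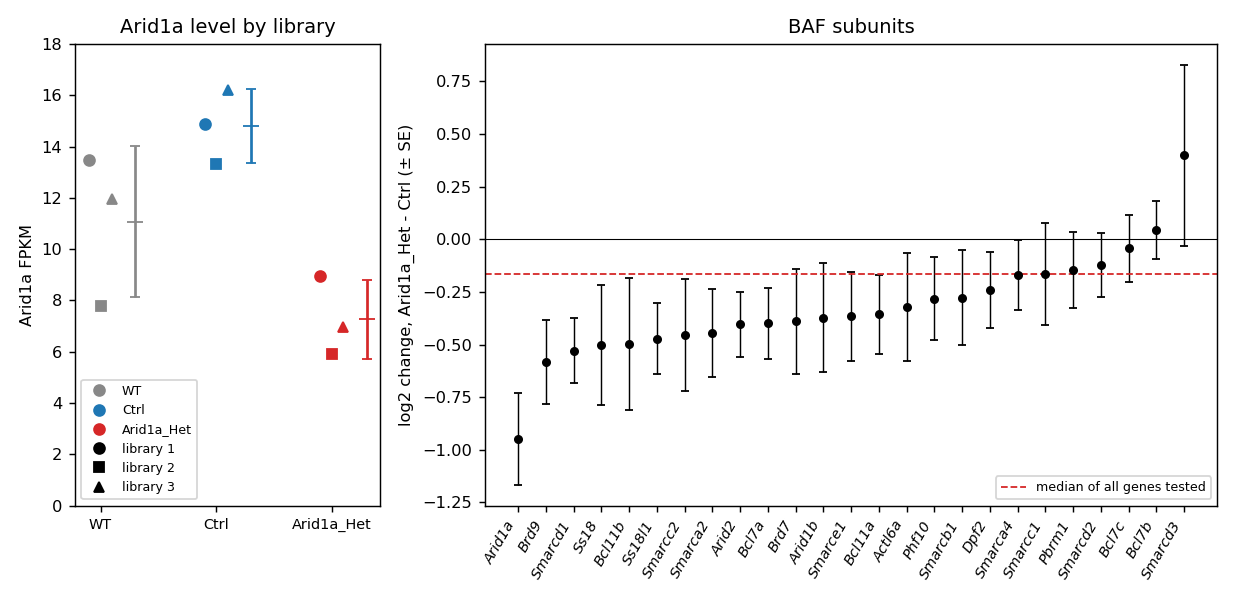
Left, Arid1a FPKM in each library of the 3 genotypes, with the mean and SD (n = 3) beside the points. Right, the log2 change of 25 BAF subunits between Arid1a_Het and Ctrl with its SE, beside the median of all genes tested (dashed). The Arid1a_Het points sit at 8.94, 5.897 and 6.96 FPKM, under all Ctrl points, and Arid1a is the lowest of the subunits at -0.95.

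Across all genes the libraries of the 2 genotypes overlapped for most. Only 1 of 11209 genes passed at an adjusted p under 0.05, as lower (0.00892%), and 0 as higher in limma. At an unadjusted p under 0.05 there were 1176 lower (10.5%) and 129 higher genes (1.15%), and limma voom, run on whole reads, passed 0 genes, with 1232 lower and 112 higher at the unadjusted level. The direction of these smaller differences depended on the scaling. As deposited, 90.2% of the genes with non-overlapping groups were lower, while with median-ratio scaling 1119 genes (9.98%) were lower and 1360 (12.1%) higher, so that 45.1% were lower (at an unadjusted p under 0.05, 692 lower, 6.17%, and 638 higher, 5.69%), and with quantile normalization 49.3%. Median-ratio scaling moved the median log2 change of all genes from -0.16 to 0.03. Lists are therefore described relative to the median of all genes, with counts under both scalings. A count of lower members apart is to be read against 22.2% of all genes as deposited and 9.98% with median-ratio scaling, and one of higher members against 2.41% and 12.1%. List medians also depended on single libraries. Of the 41 lists with 5 or more tested members, the median relative to all genes changed sign in 17 when some 1 of the 6 libraries was left out, moved by over 1.5 times with the same sign in 19, and stayed within 1.5 times in 5, namely REG lectins and antimicrobial genes, coactivators and H3K4/H3K27 enzymes, other remodelers, PRC2 and tuft cells.

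**Figure D2:**
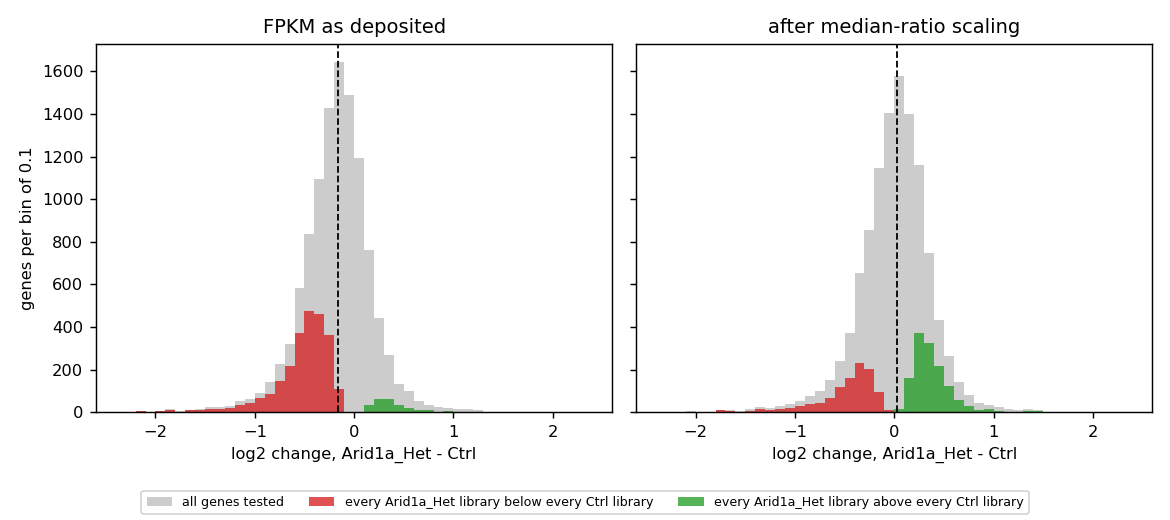
Number of genes per bin of 0.1 in log2 change between Arid1a_Het and Ctrl, for FPKM as deposited (left) and after median-ratio scaling (right), within -2.6 to 2.6. Grey bars are all genes tested, coloured bars the genes whose groups do not overlap, and the dashed line is the median. The coloured genes are mostly lower on the left (2494 against 270) and about balanced on the right (1119 against 1360).

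The gene that passed was Mir7688, a microRNA locus of 56 bases on chromosome 10 (93433107 to 93433162, plus strand), which lies in no annotated gene, 20.2 kb before Lta4h and 122.0 kb after Elk3. It held 0, 0 and 0 reads in Arid1a_Het against 13, 14 and 13 in Ctrl, with WT at 1, 0 and 0. The Ctrl values were 10.2, 8.47 and 8.59 FPKM. No Arid1a_Het or WT library reached 1 FPKM, so the locus entered the test through Ctrl alone, the group where it is high. Mir7688 was 14.5-fold lower in Arid1a_Het, taking 3 reads over the group as the most that a count of 0 allows for (log2 change -3.33, SE 0.23, adjusted p = 0.001267). The Ctrl reads entered this ratio as counted, without their own counting error, so it is not a strict lower bound. Mir7688 passed in 20 of 23 alternatives and not with a pseudocount of 0.1 or 0.01 or with limma voom (adjusted p = 0.09957, 0.4015 and 0.2678), so the call depends on how counts this low are weighted. The floor of 3 reads covers counting error only, and only that of Arid1a_Het. The 2 arms of the hairpin are shown since this is the only locus that passed, with the seed (bases 2 to 8) in capitals, from RefSeq on GRCm38.p6. Mature microRNAs carry no poly(A) tail, so these reads do not measure them.
mmu-miR-7688-5p: uAGCUGGGcaugaucugaugagc
mmu-miR-7688-3p: uCUGGCUUaugccuagcuuuc

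Other small RNA loci also rest on few reads. Of 144 tested loci of microRNAs and small nucleolar or Cajal body RNAs, which guide the modification of other RNAs, 1 passed. The filter of 1 FPKM would have left out 51 of the 144 (35.4%, against 5.13% of all genes tested) without the Ctrl libraries, and 6 (4.17%, against 1.97%) without those of Arid1a_Het. Loci that entered through Ctrl had to be higher there, so no direction is read from the 144 together. Their median length was 79 bases.

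Snora31, a box H/ACA RNA inside Tpt1, came next in p and did not pass. Its 130 bases held 16, 14 and 22 reads in Arid1a_Het, against 51, 76 and 92 in Ctrl, with WT at 13, 11 and 18 (log2 change -1.97, SE 0.24, adjusted p = 0.0703). The host Tpt1, which encodes the translationally controlled tumour protein, stood at 7.85, 7.23 and 9.84 FPKM in Arid1a_Het and 7.58, 9.21 and 6.22 in Ctrl, with overlapping groups. Snord69, a box C/D RNA in Gnl3, held 2, 0 and 1 reads against 9, 6 and 18, and Snord33 in Rpl13a held 3, 1 and 1 against 8, 9 and 18. The counting of reads shared by a host and its guest is not given in the sources used here, so these values are uncertain. The Snora31 transcript, from GENCODE on GRCm38 (chr14:75847905-75848034, plus strand), is shown with its ACA box, which a script placed 3 bases before the 3′ end, in capitals, because it came next to Mir7688 in p.
Snora31: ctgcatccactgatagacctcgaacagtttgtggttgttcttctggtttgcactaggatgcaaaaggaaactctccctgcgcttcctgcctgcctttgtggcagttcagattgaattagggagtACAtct

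Among other named genes the 10 of lowest p that were lower in every Arid1a_Het library began with Nox1, an epithelial NADPH oxidase that makes superoxide. Nox1 stood at 0.0528, 0.299 and 0.759 FPKM in Arid1a_Het against 3.25, 3.48 and 2.43 in Ctrl, with WT at 0, 0.0459 and 0.013 (log2 change -1.59, SE 0.21, adjusted p = 0.1193). No Arid1a_Het or WT library reached 1 FPKM, so Nox1 entered the test through Ctrl alone, the group where it is high. Its annotated span overlaps Xkrx on the same strand and Cstf2 and Arl13a on the other. Gnb5, a G protein beta subunit, stood at 8.17, 7.38 and 7.38 against 17.7, 14.01 and 19.2 FPKM (log2 change -1.05, SE 0.16, adjusted p = 0.1612). Vipr1, a receptor of vasoactive intestinal peptide, was at 0.401, 0.229 and 0.284 against 1.97, 1.24 and 1.57, and Vnn3, of the vanin family of pantetheinases, at 0.135, 0.0585 and 0.684 against 1.44, 1.95 and 1.94. For Vipr1 and Vnn3, too, no Arid1a_Het library reached 1 FPKM. Kansl1l stood at 1.68, 1.93 and 1.83 against 4.401, 4.68 and 4.403 FPKM, with the Ctrl libraries close together. Eif4ebp3, a translation repressor of the 4E-BP family, stood at 8.96, 8.41 and 8.6 and 16.95, 13.7 and 18.1, and its span overlaps another annotated gene. The 10 genes had adjusted p from 0.1193 (Nox1) to 0.2312 (Vnn3).

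The rest of these 10 are uncertain in their counting. AA465934, a transcript that holds Snord7, stood at 0.245, 0.447 and 0.242 against 7.94, 10.2 and 4.42 FPKM, and Snhg9, which overlaps Snora78 and Rps2, at 0.191, 0 and 0.188 against 1.69, 1.67 and 1.01. Snhg9, at 1, 0 and 1 reads in WT, also entered the test through Ctrl alone. Rpl3, a ribosomal protein gene that holds several small nucleolar RNAs, held 68, 49 and 56 reads in Arid1a_Het, against 863, 1216 and 749 in Ctrl, with WT at 669, 498 and 64 (log2 change -2.90, SE 0.51, adjusted p = 0.2234). WT 3 was at the Arid1a_Het level and the other 2 WT libraries near that of Ctrl, and with only the 2 groups in the fit Rpl3 passed (adjusted p = 0.003216). Rgs13, a regulator of G protein signalling that tuft cells express, is given with the tuft markers.

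Among the 43 gene lists, mucosal defence genes had the lowest median. These are secreted lectins, antimicrobial proteins and the carriers of secreted antibody that an inflamed epithelium makes. Of 14 tested members of the list of REG lectins and antimicrobial genes 0 passed, 7 were lower at an unadjusted p under 0.05 (50%, against 10.5% of all genes), and the groups were apart, as lower, for 6 (42.9%, against 22.2%), or 5 with median-ratio scaling (35.7%, against 9.98%). The list median was 0.94 below that of all genes. Its read sum was 4488, 3362 and 12030 RPM (reads scaled to library depth) in Arid1a_Het and 14760, 13640 and 16810 in Ctrl.

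Reg3b, a lectin that kills bacteria, stood at 21.2, 19.7 and 83.6 FPKM in Arid1a_Het against 197, 178 and 173 in Ctrl, with WT at 0.113, 0.0333 and 0.302 (log2 change -2.44, SE 0.45, adjusted p = 0.2312). Its near relative Reg3g, which binds peptidoglycan, stood at 49.6, 28.3 and 131, 244, 226 and 232 and 0.468, 0.216 and 0.937 FPKM (log2 change -2.02, SE 0.45, adjusted p = 0.2962). The Ctrl libraries of both genes lay close together, and Arid1a_Het 3 lay between them and the other 2 Arid1a_Het libraries. Pigr, the receptor that carries IgA and IgM across the epithelium, stood at 317, 198 and 607 against 878, 952 and 875, and Reg1, another secreted REG lectin, at 419, 765 and 753 against 1218, 1660.2 and 1110.2. Dmbt1, a scavenger protein of mucus, stood at 336, 192 and 833 against 1166, 957 and 1322 FPKM. For each of these genes all Arid1a_Het libraries were below all Ctrl libraries, and WT lay below both groups. Reads shared between REG relatives could be split by the counting, which makes the values of single REG genes uncertain.

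Inflammatory genes gave the same picture of 1 library apart. Of 23 tested inflammatory and NF-kB genes 0 passed, 8 were lower at an unadjusted p under 0.05 (34.8%, against 10.5% of all genes), and the groups were apart for 3, as lower (13%), or 1 with median-ratio scaling (4.35%), fewer than the 22.2% and 9.98% of all genes. The list median was 0.14 below that of all genes. Relative to all genes it was -0.64 without Arid1a_Het 3, -0.05 without Arid1a_Het 2 and -0.06 without Ctrl 3, and it was -0.31 without either Ctrl 1 or Ctrl 2. Cxcl5, a neutrophil-attracting chemokine, stood at 8.17, 7.44 and 48.7 FPKM in Arid1a_Het and 38.9, 36.1 and 43.9 in Ctrl, so that Arid1a_Het 3 was above all Ctrl libraries. Il1b, the cytokine interleukin-1 beta, stood at 3.37, 2.69 and 30.6 and 17.6, 41.3 and 28.5, and Lcn2, which binds bacterial siderophores, at 1.17, 1.13 and 10.05 and 13.9, 9.76 and 16.02. Arid1a_Het 3 lay within the Ctrl range for both. Nfkbiz, a nuclear NF-kB regulator, stood at 17.4, 14.2 and 33.8 against 37.99, 44.2 and 61.4 FPKM, with all Arid1a_Het libraries lower. The inflammatory caspases Casp1 (0.466, 0.519 and 2.02 against 4.301, 3.46 and 3.41) and Casp4 (0.405, 0.2 and 0.834 against 1.37, 2.695 and 2.67) were apart in the same way. They belong to the apoptosis list and are not among the 3 above. In the apoptosis list 7 of 19 were apart as lower (36.8%), or 3 with median-ratio scaling (15.8%), where 4 were apart as higher.

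Without Arid1a_Het 3 the test passed 20 genes as lower (0.178%) and 2 as higher (0.0178%), among them 10 list members, all lower. These were Reg3b (log2 change -3.10, adjusted p = 0.0003931), Cxcl5 (-2.20, 0.003356), Lcn2 (-2.70, 0.003356), Reg3g (-2.61, 0.01414), Il1b (-2.83, 0.02479), Pigr (-1.84, 0.0275), S100a9 (-2.85, 0.02882), S100a8 (-2.80, 0.03773), Casp1 (-1.66, 0.03773) and Hspa1a (-2.28, 0.04352). Others were Nox1 (-1.78, 0.01826), the secreted glycoprotein Lrg1 (-3.001, 0.02091), the lipopolysaccharide-binding protein Lbp (-1.98, 0.02783) and 2 myeloid receptors, Csf3r (-1.97, 0.02907) and Trem1 (-1.47, 0.04352). Mab21l3, the carboxylesterase Ces1d, Vnn3 and Snora31 also passed, beside Mir7688. The 2 higher genes were Slc5a5, the sodium iodide symporter (1.14, 0.02783), and Proz, the vitamin K-dependent protein Z (1.80, 0.02961). Some digestive enzymes of the pancreas, which lies against the stomach, were high in Ctrl 1 and Arid1a_Het 3, with the trypsinogen Prss2 at 437 and 188.5 FPKM against at most 0.650 in the other 4 libraries. These 2 were the highest of the 6 for 7 of 13 tested exocrine pancreas genes, Arid1a_Het 2 was the highest for 3, and the read sum of the whole list was 1580, 8313 and 4248 RPM in Arid1a_Het and 7642, 2988 and 2255 in Ctrl. Leaving out Ctrl 1 and Arid1a_Het 3 passed 21 genes as lower (0.187%), 0 as higher and 15 in common with the 22, or 68.2% and 71.4% of the sets. These sets describe the libraries that remain and are no separate evidence, since the values of Arid1a_Het 3 were known.

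Leukocyte genes differed between the same libraries. S100a9, a calcium-binding protein of neutrophils that epithelia also make, stood at 3.34, 5.35 and 58.8 FPKM in Arid1a_Het and 24.2, 56.9 and 36.1 in Ctrl. The read sum of all 22 leukocyte genes listed was 42.65, 98.65 and 370.3 RPM in Arid1a_Het and 200.8, 241.9 and 140.0 in Ctrl, highest in Arid1a_Het 3. Of 11 tested members 0 passed, the groups were apart for 0, and the neutrophil granule enzyme Mpo was under 0.1 FPKM in all 6 libraries. The neutrophil receptor Cxcr2 stood at 0.492, 0.255 and 5.58 and 2.13, 4.704 and 5.66 FPKM. Arid1a_Het 3 also had the highest squamous keratin sum (1543 RPM, against 285.9 to 868.6 in the other 5), the highest fibroblast sum (526.5, against 72.37 to 216.7) and the most gastrin. The part of these other cells in the results was not tested.

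**Figure D3:**
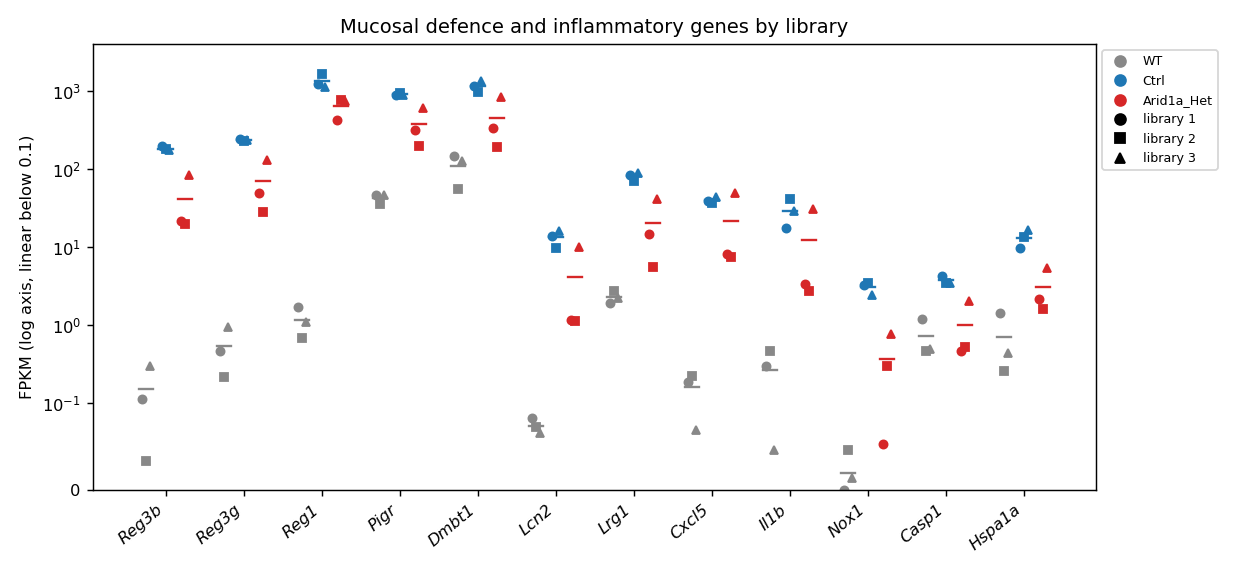
FPKM of 12 mucosal defence, inflammatory and stress genes in each library of WT, Ctrl and Arid1a_Het (log axis, linear below 0.1), with lines at group means. Symbols mark the library number. Arid1a_Het 1 and 2 sit under every Ctrl library, and Arid1a_Het 3 sits higher than both in 11 of the 12 genes, for Cxcl5 above all Ctrl libraries. Most of the 12 passed when Arid1a_Het 3 was left out, so these positions follow in part from the choice of genes.

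The heat shock list lay below the median of all genes to an extent that rested on Ctrl 3. Of 14 tested chaperone genes 0 passed, 6 were lower at an unadjusted p under 0.05 (42.9%, against 10.5% of all genes), and the groups were apart as lower for 5 (35.7%, against 22.2%), or 3 with median-ratio scaling (21.4%, against 9.98%). The median was 0.45 below that of all genes, and relative to all genes it was -0.13 without Ctrl 3. The read sum was 3014, 2349 and 3703 RPM in Arid1a_Het and 3605, 3809 and 6721 in Ctrl, so the groups overlapped. Hspa1a, an inducible HSP70, stood at 2.15, 1.596 and 5.403 FPKM in Arid1a_Het against 9.74, 13.2 and 16.6 in Ctrl, with WT at 1.44, 0.256 and 0.435 (log2 change -1.89, SE 0.37, adjusted p = 0.2312). Its co-chaperone Dnajb1 stood at 23.3, 21.8 and 27.2 against 34.1, 36.2 and 35.8, and Hsf1, the factor that drives these genes, at 15.2, 9.68 and 13.2 against 19.2, 17.2 and 25.6. Hspa1b, the neighbouring copy of Hspa1a, stood at 13.5, 9.27 and 35.8 and 30.5, 40.5 and 66.6 FPKM, with Arid1a_Het 3 within the Ctrl range. The 250 bases before the start of the 2 copies are shown because reads and promoters of the pair are near-identical, so the split of reads between them is uncertain. In these windows 247 of 250 bases were the same. Each held 1 match to a heat shock element (GAANNTTC, which reads the same on both strands), in capitals, 104 bases before the start, and 6.69% of 32851 RefSeq promoter windows hold one (GRCm38.p6, minus strand, chr17:34972157-34972406 and chr17:34959239-34959488).
Hspa1a: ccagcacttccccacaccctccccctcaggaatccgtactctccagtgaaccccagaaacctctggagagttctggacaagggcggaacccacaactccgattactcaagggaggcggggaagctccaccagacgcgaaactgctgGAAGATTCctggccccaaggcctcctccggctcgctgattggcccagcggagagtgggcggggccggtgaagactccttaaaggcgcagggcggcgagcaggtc
Hspa1b: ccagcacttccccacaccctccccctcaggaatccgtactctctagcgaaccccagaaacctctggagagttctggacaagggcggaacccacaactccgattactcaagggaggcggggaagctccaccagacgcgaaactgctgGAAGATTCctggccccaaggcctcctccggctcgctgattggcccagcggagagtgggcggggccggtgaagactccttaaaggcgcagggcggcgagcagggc

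Chromatin regulators outside BAF mostly lay below the median of all genes. Histone acetyltransferases and H3K4 or H3K27 enzymes, which mark or clear the enhancers where BAF works, were below the median of all genes in 20 of 20 tested members. None passed, 10 were lower at an unadjusted p under 0.05 (50%, against 10.5% of all genes), and the groups were apart as lower for 12 (60%, against 22.2%), or 5 with median-ratio scaling (25%, against 9.98%). Kmt2d, the main enhancer H3K4 methyltransferase, stood at 5.23, 3.11 and 3.78 FPKM in Arid1a_Het against 10.2, 7.45 and 15.7 in Ctrl, with WT at 6.67, 2.44 and 5.28 (log2 change -1.23, SE 0.34, adjusted p = 0.3557). Its relative Kmt2a stood at 3.11, 1.55 and 1.96 against 6.28, 4.74 and 7.26, Kmt2c at 5.695, 4.401 and 4.03 against 8.88, 7.099 and 9.31, and the acetyltransferase Crebbp at 2.43, 1.87 and 2.195 against 4.23, 3.72 and 4.56. All 4 had groups that did not overlap.

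Other remodelers, of the CHD, ISWI and INO80 kinds, had 0 of 20 past the test, 11 apart as lower (55%, against 22.2% of all genes), 10 with median-ratio scaling (50%, against 9.98%), and a median 0.36 below that of all genes. Chd7 stood at 2.14, 2.46 and 2.65 against 3.47, 3.62 and 4.37 FPKM and Baz2b at 2.02, 1.34 and 1.51 against 2.99, 3.08 and 2.59. Chd6 (2.601, 1.795 and 1.62 against 3.94, 3.82 and 3.19) and Chd2 (4.04, 2.09 and 2.53 against 5.36, 5.43 and 4.88) were lower in each Arid1a_Het library too. Polycomb PRC2 genes, which set H3K27 methylation, had 0 of 10 past the test, 6 apart as lower (60%), and 2 with median-ratio scaling (20%). The PRC2 accessory gene Phf1 stood at 6.11, 3.35 and 3.48 against 8.35, 7.005 and 12.1 FPKM and the methyltransferase Ezh1 at 7.24, 4.36 and 3.81 against 8.13, 8.42 and 8.201. The share of genes apart as lower was also larger in longer genes over 5 equal classes, from 14.8% of the shortest to 31.5% of the longest, and from 8.96% to 13.5% with median-ratio scaling, and many chromatin regulators are long. The part of length in these counts was not tested.

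Mitosis genes were below the median of all genes in 25 of 25 tested members, by a median of 0.43. None passed, and 1 was lower at an unadjusted p under 0.05 (4%, under the 10.5% of all genes). The groups were apart as lower for 18 (72%, against 22.2%), or 15 with median-ratio scaling (60%, against 9.98%). Without Arid1a_Het 2 the median relative to all genes was -0.24. Mki67, the proliferation marker, stood at 17.05, 4.21 and 8.43 FPKM in Arid1a_Het against 30.99, 22.3 and 26.99 in Ctrl, with WT at 31.8, 1.62 and 15.5 (log2 change -1.52, SE 0.80, adjusted p = 0.4745). Arid1a_Het 1 was the highest of its group, and the WT libraries spread further still. The kinetochore genes Cenpf (2.27, 0.847 and 1.47 against 4.31, 3.97 and 4.09) and Cenpe (5.21, 1.701 and 3.44 against 7.76, 7.11 and 8.63) and the mitotic transcription factor Foxm1 (3.74, 2.13 and 3.38 against 5.53, 4.95 and 5.65) were lower in each Arid1a_Het library. DNA replication genes had 3 of 25 apart as lower, 0 with median-ratio scaling, and a median 0.06 below that of all genes. The growth regulator Myc stood at 17.2, 9.94 and 16.9 FPKM against 22.8, 23.9 and 25.6, with non-overlapping groups (log2 change -0.71, SE 0.28, adjusted p = 0.4044). The Myc and cell cycle list, Myc included, had a median equal to that of all genes within 0.01.

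Stress and survival lists were mixed. Of 23 tested p53 targets the groups were apart as lower for 6 and as higher for 3, or 1 and 3 with median-ratio scaling. Mdm4, an inhibitor of p53, stood at 3.64, 1.47 and 2.03 FPKM against 5.13, 4.29 and 7.94, and Ccng1, a cyclin induced by p53, at 64.2, 53.3 and 70.7 against 48.5, 50.3 and 50.1, higher in every Arid1a_Het library. Among unfolded protein response genes, Ddit3, a stress transcription factor, stood at 2.77, 1.96 and 1.87 against 5.098, 4.23 and 4.99 and Chac1, its downstream glutathione-degrading enzyme, at 1.13, 1.12 and 1.09 against 0.216, 0.373 and 0.52, so that this pair pointed in opposite directions. For Chac1 no Ctrl library reached the filter of 1 FPKM, and the Arid1a_Het levels were just above it. None of these genes passed.

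Markers of tuft cells, the rare chemosensory cells of the gland, differed among themselves. Of 9 tested markers 0 passed, 6 were below the median of all genes and 3 above it, 5 were lower at an unadjusted p under 0.05 (55.6%, against 10.5% of all genes), and 3 were apart as lower (33.3%, against 22.2%), or 2 with median-ratio scaling (22.2%, against 9.98%). The median was 0.34 below that of all genes. With the higher minimum of 5 FPKM only 4 markers were left, and their median was -0.0001709 relative to the 7634 genes that reached that minimum. The read sum of the list overlapped, at 451.0, 342.7 and 488.5 RPM in Arid1a_Het and 538.6, 431.6 and 528.0 in Ctrl. Gnat3, the taste G protein gustducin, stood at 1.33, 1.09 and 1.64 FPKM in Arid1a_Het against 2.75, 4.13 and 1.85 in Ctrl, with WT at 5.82, 4.61 and 3.35. Dclk1, a kinase used as a tuft cell marker, stood at 0.86, 0.758 and 0.882, 2.06, 2.27 and 1.05 and 5.76, 4.05 and 3.197, and the ion channel Trpm5 at 1.64, 2.08 and 1.59, 3.43, 4.34 and 2.28 and 7.05, 8.08 and 4.595. Ctrl 3 was the lowest Ctrl library for all 3 genes and was still above each Arid1a_Het library. Rgs13, which was not in the list, stood at 2.87, 1.86 and 2.47, 7.09, 8.85 and 5.16 and 13.7, 10.6 and 10.1 FPKM (log2 change -1.23, SE 0.21, adjusted p = 0.2234). Pou2f3, the factor that specifies tuft cells, overlapped (0.721, 0.678 and 1.07 against 2.02, 1.84 and 0.996).

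Genes at higher levels in Arid1a_Het were fewer as deposited, and none passed. The 10 of lowest p with non-overlapping groups had adjusted p from 0.187 (Gbp2b) to 0.3371 (Fut4). Gbp2b, an interferon-inducible guanylate-binding protein with close relatives, stood at 3.19, 7.85 and 5.31 FPKM in Arid1a_Het against 0.266, 0.384 and 0.0786 in Ctrl, with WT at 0.9, 2.85 and 3.55 (log2 change 2.32, SE 0.36, adjusted p = 0.187). Its reads were 258, 627 and 436 against 17, 32 and 6. No Ctrl library reached 1 FPKM, nor did the WT library at 0.9. Without Arid1a_Het, the group where it is high, Gbp2b would therefore not have entered the test. Psca, a surface protein of the pit lineage, stood at 4956, 6843 and 3982, 1955, 2451 and 2473 and 5901, 9272 and 7291 FPKM (log2 change 1.17, SE 0.28, adjusted p = 0.3318). Nqo1, a quinone reductase and a standard NRF2 target, stood at 1043, 1063 and 791 against 477, 582 and 326 (log2 change 1.09, SE 0.24, adjusted p = 0.2798).

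Of the rest of the 10, Cyp2s1, a cytochrome P450, stood at 104, 124 and 87.3 FPKM against 52.1, 48.4 and 42.2, and Ces2c, a carboxylesterase, at 48.1, 59.1 and 62.9 against 27.98, 25.2 and 38.2. Ehhadh, an enzyme of peroxisomal beta-oxidation, stood at 25.9, 29.7 and 22.96 against 16.2, 17.7 and 11.4, and the fucosyltransferase Fut4 at 25.99, 31.6 and 23.02 against 13.7, 15 and 17.1. The progestin receptor Paqr7 (20.4, 32.4 and 20.5 against 6.61, 12.5 and 8.23), the membrane protein Prom2 (7.69, 7.74 and 4.39 against 1.85, 2.098 and 1.84) and Proz (9.17, 7.96 and 3.26 against 2.23, 2.01 and 1.13) complete the set. Arid1a_Het 3 was the lowest of its group for 7 of the 10. Their WT libraries were above every Ctrl library for all 10 genes. The Ctrl libraries enter both distances, so the WT values are side by side only.

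**Figure D4:**
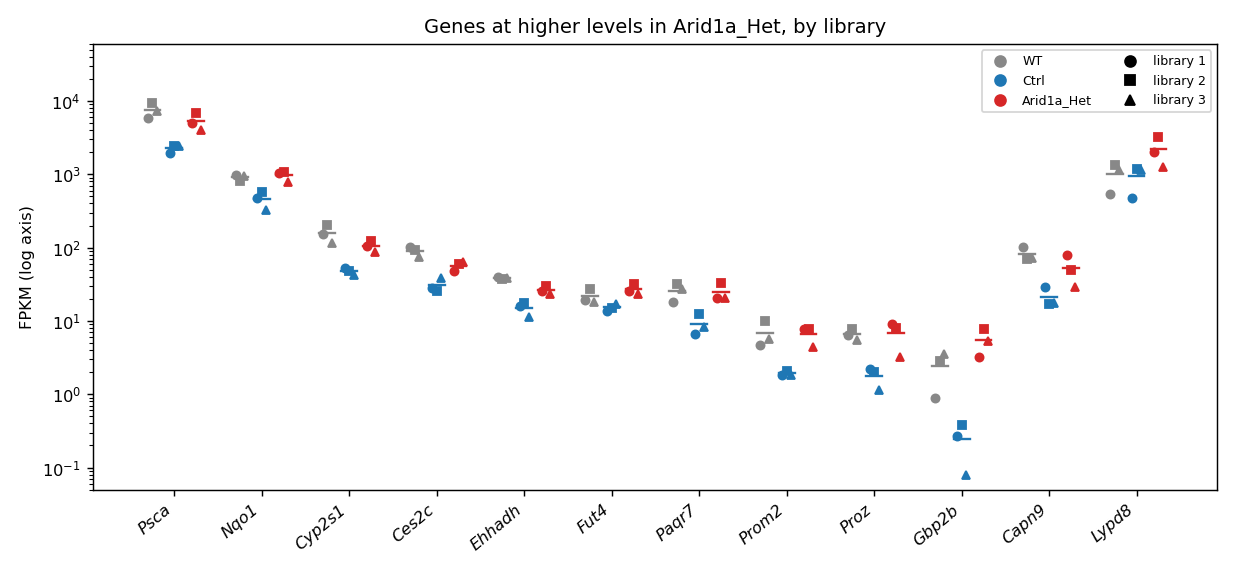
FPKM (log axis) of the 10 genes of lowest p that were higher in Arid1a_Het, with 2 more pit cell markers, Capn9 and Lypd8, in each library of WT, Ctrl and Arid1a_Het. Lines are group means and symbols mark the library number. Each Arid1a_Het library sits above all Ctrl libraries for Psca to Gbp2b and for Lypd8, while Capn9 overlaps slightly (29.3 in Arid1a_Het 3 against 29.4 in Ctrl 1).

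Pit cell markers, the mucus cells of the surface, lay above the median of all genes in 15 of 16 tested members. None passed, 4 were higher at an unadjusted p under 0.05 (25%, against 1.15% of all genes), and the groups were apart as higher for 4 (25%, against 2.41%), or 6 with median-ratio scaling (37.5%, against 12.1%). The list median was 0.50 above that of all genes, and relative to all genes it lay between 0.32 without Ctrl 2 and 0.74 without Ctrl 3 or Arid1a_Het 3. With quantile normalization the median relative to all genes was 0.23. In that setting 2 members were apart as higher and 1 as lower, against 988 and 961 of all 11209 genes. Lypd8, which keeps flagellated bacteria off the epithelium, stood at 2032, 3247 and 1265 FPKM against 471, 1179 and 1163, and Capn9, a digestive tract calpain, at 78.8, 49.7 and 29.3 against 29.4, 17.1 and 17.5. Aldh3a1, an aldehyde dehydrogenase, overlapped (838, 941 and 506 against 375, 613 and 473). The read sum of the list was 94420, 91290 and 57700 RPM in Arid1a_Het and 55940, 46850 and 59950 in Ctrl, so Arid1a_Het 3 was at the Ctrl level.

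Of the energy metabolism lists, oxidative phosphorylation lay to 1 side and glycolysis went both ways. All 26 tested oxidative phosphorylation genes were above the median of all genes, with a list median 0.40 above it (0.19 relative to all genes without Arid1a_Het 2) and 0 past the test. The groups were apart as higher for 3 as deposited and for 14 with median-ratio scaling, against 2.41% and 12.1% of all genes. With quantile normalization 2 were apart as higher, against 988 of all 11209 genes, and the list median was 0.18 above that of all genes. Sdhc, a membrane subunit of complex II, stood at 83.4, 107 and 78.9 FPKM against 76.6, 82.4 and 57.3, and Atp5o, of the ATP synthase, at 92.4, 109 and 87.7 against 82.7, 89.6 and 62.01. Both overlapped. Glycolysis and hypoxia genes had a median 0.34 above that of all genes (apart as higher 1 of 20, 8 with median-ratio scaling and 3 with quantile normalization), with 15 members above and 5 below. The 2 members at an unadjusted p under 0.05 were at lower means, a share (10%) near that of all genes (10.5%). They were the glycolytic kinase Hk2 (13.4, 14.1 and 35.3 against 30.1, 33.4 and 43.8 FPKM) and the angiogenic factor Vegfa (23.1, 12.9 and 17.7 against 22.7, 23.9 and 45.6), and both overlapped. Without Ctrl 1 the median relative to all genes was 0.23, and with quantile normalization it was 0.16. Cholesterol synthesis genes had a median 0.31 above that of all genes (apart as higher 0 of 19, 5 with median-ratio scaling and 0 with quantile normalization), which relative to all genes was 0.20 without Ctrl 3 and 0.48 without Ctrl 1.

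The NRF2 and glutathione list, apart from Nqo1, went both ways. Its 20 members had a median 0.04 above that of all genes. Gclc, the enzyme that limits glutathione synthesis, stood at 98.6, 60.8 and 87.97 FPKM against 116, 144 and 156, lower in every Arid1a_Het library, and the cystine transporter Slc7a11 overlapped (0.82, 0.5 and 2.36 against 1.65, 3.96 and 4.73).

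Interferon response genes spread widely between libraries of the same genotype. Of 30 tested 0 passed and the groups were apart for 0, and the median, 0.49 above that of all genes, rested on single libraries. Relative to all genes it was 0.05 without Arid1a_Het 2 and 0.12 without Ctrl 1. Isg15, a ubiquitin-like interferon product, stood at 75.6, 219.8 and 56.5 FPKM in Arid1a_Het and 17.3, 88.4 and 48.9 in Ctrl, and the peptide transporter Tap1 at 8.13, 18.4 and 10.2 and 5.33, 9.32 and 7.75. Library 2 was the highest of its group in each case. Irf1, a transcription factor of the pathway, overlapped in the other direction (9.52, 10.5 and 14.4 against 13.8, 17.95 and 17.2). MHC class II genes had 0 of 6 apart and a median 0.06 above that of all genes.

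Notch pathway genes overlapped between the 2 genotypes for the most part. Of 18 tested pathway genes 0 passed, 0 were under an unadjusted p of 0.05, 3 were apart as lower and 0 as higher, or 0 and 1 with median-ratio scaling, and the median was 0.01 above that of all genes. Nrarp, a feedback target of Notch, stood at 263, 161 and 185 FPKM in Arid1a_Het against 113, 194 and 171 in Ctrl, with WT at 9.06, 3.796 and 7.69 (log2 change 0.35, SE 0.32, adjusted p = 0.6394). Both NICD genotypes were above WT in each library and overlapped each other. Hey1, a transcriptional repressor induced by Notch, stood at 4.99, 1.24 and 5.17 and 1.58, 2.28 and 0.975, with Arid1a_Het 2 within the Ctrl range. Hes1, of the same family, stood at 117, 128 and 115 and 85.6, 113 and 137, and Notch1, to which transgene reads may be counted, at 8.17, 6.59 and 6.83 and 7.099, 8.37 and 8.05. The Notch receptor-modifying enzymes Lfng (0.516, 0.818 and 2.88 against 3.84, 2.85 and 1.74) and Rfng (7.92, 7.01 and 8.47 against 10.95, 8.92 and 11.2) were at lower means, and Rfng alone of these 2 did not overlap.

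Parietal and chief markers spread widely within both genotypes. Of 23 tested parietal markers 0 passed and 0 were apart, and the median was 0.64 above that of all genes, or 0.28 relative to all genes without Arid1a_Het 2 and 1.02 without Arid1a_Het 3. The read sum was 8013, 17570 and 4719 RPM in Arid1a_Het and 3675, 6283 and 4774 in Ctrl. Aqp4, a water channel of parietal cells, stood at 15.1, 5.76 and 23.2 FPKM and 3.12, 4.202 and 7.43, and the potassium channel Kcnj15 at 29.97, 45.4 and 7.53 and 4.58, 15.7 and 10.7. Chief cell markers summed to 19540, 121000 and 14390 RPM against 20060, 48300 and 12350, with Arid1a_Het 2 and Ctrl 2 the highest of their groups. Their median relative to all genes, 0.31, was -0.37 without Arid1a_Het 2. Cym, the neonatal milk-clotting protease chymosin, stood at 307, 3624 and 2614 FPKM in Arid1a_Het against 8869, 16358 and 2049 in Ctrl, with WT at 15.7, 78.9 and 8.74, and overlapped by way of Ctrl 3.

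Metaplasia, stem and intestinal lists had medians below that of all genes, but no larger share of metaplasia or intestinal markers was apart as lower, as deposited, than among all genes. SPEM, a metaplasia in which the gland takes on features of the neck and antrum, had 0 of 21 markers past the test, 4 apart as lower (19%, against 22.2% of all genes), 2 with median-ratio scaling (9.52%, against 9.98%), and a median 0.38 below that of all genes. Relative to all genes that median was -0.13 without Arid1a_Het 1, -0.17 without Ctrl 1 and -0.64 without Arid1a_Het 3. Ceacam10, a cell adhesion protein, stood at 0.42, 2.15 and 1.91 FPKM against 4.19, 5.8 and 2.72, and Sox9, a progenitor transcription factor, at 22.01, 27.2 and 26.96 against 41.9, 45.6 and 29.2, with the lowest Ctrl library just above the Arid1a_Het range. Intestinal markers had 2 of 10 apart as lower under both scalings (20%), the membrane mucin Muc13 (2.16, 11.1 and 11.4 against 24.3, 19.6 and 24.9) and the Paneth cell lysozyme Lyz1 (0.11, 0.643 and 1.85 against 5.83, 2.57 and 3.22). The median of the intestinal list relative to all genes was -0.30, and 0.03 without Ctrl 1. Stem and isthmus markers had a median 0.20 below that of all genes, with 4 of 14 apart as lower, 2 with median-ratio scaling, and relative to all genes -0.11 without Arid1a_Het 1 and -0.34 without Arid1a_Het 3. Transcription factors that hold gastric identity had a median 0.03 below it and 4 of 19 apart as lower, 1 with median-ratio scaling.

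Signalling and immediate early lists had medians from 0.19 below to 0.11 above that of all genes. Ctgf, a secreted YAP target, stood at 8.81, 2.26 and 17.1 FPKM in Arid1a_Het against 2.204, 1.14 and 2.41 in Ctrl, with WT at 0.151, 0.624 and 0.135, and the groups overlapped by Arid1a_Het 2 and Ctrl 3 (log2 change 1.55, SE 0.52, adjusted p = 0.397). Bmp2, a ligand that restrains gland proliferation, stood at 16.4, 23.3 and 14.8 against 9.32, 11.02 and 13.3, higher in every Arid1a_Het library. The YAP and TEAD list had a median 0.09 below that of all genes, the Wnt and BMP targets one 0.11 above, EGF family and MAPK feedback genes one 0.19 below, and AP-1 and immediate early genes one 0.07 below, each with 0 members past the test. Relative to all genes the EGF family median was -0.32 without Arid1a_Het 3 and 0.04 without Arid1a_Het 2. The YAP and AP-1 medians also changed sign when some 1 library was left out.

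**Figure D5:**
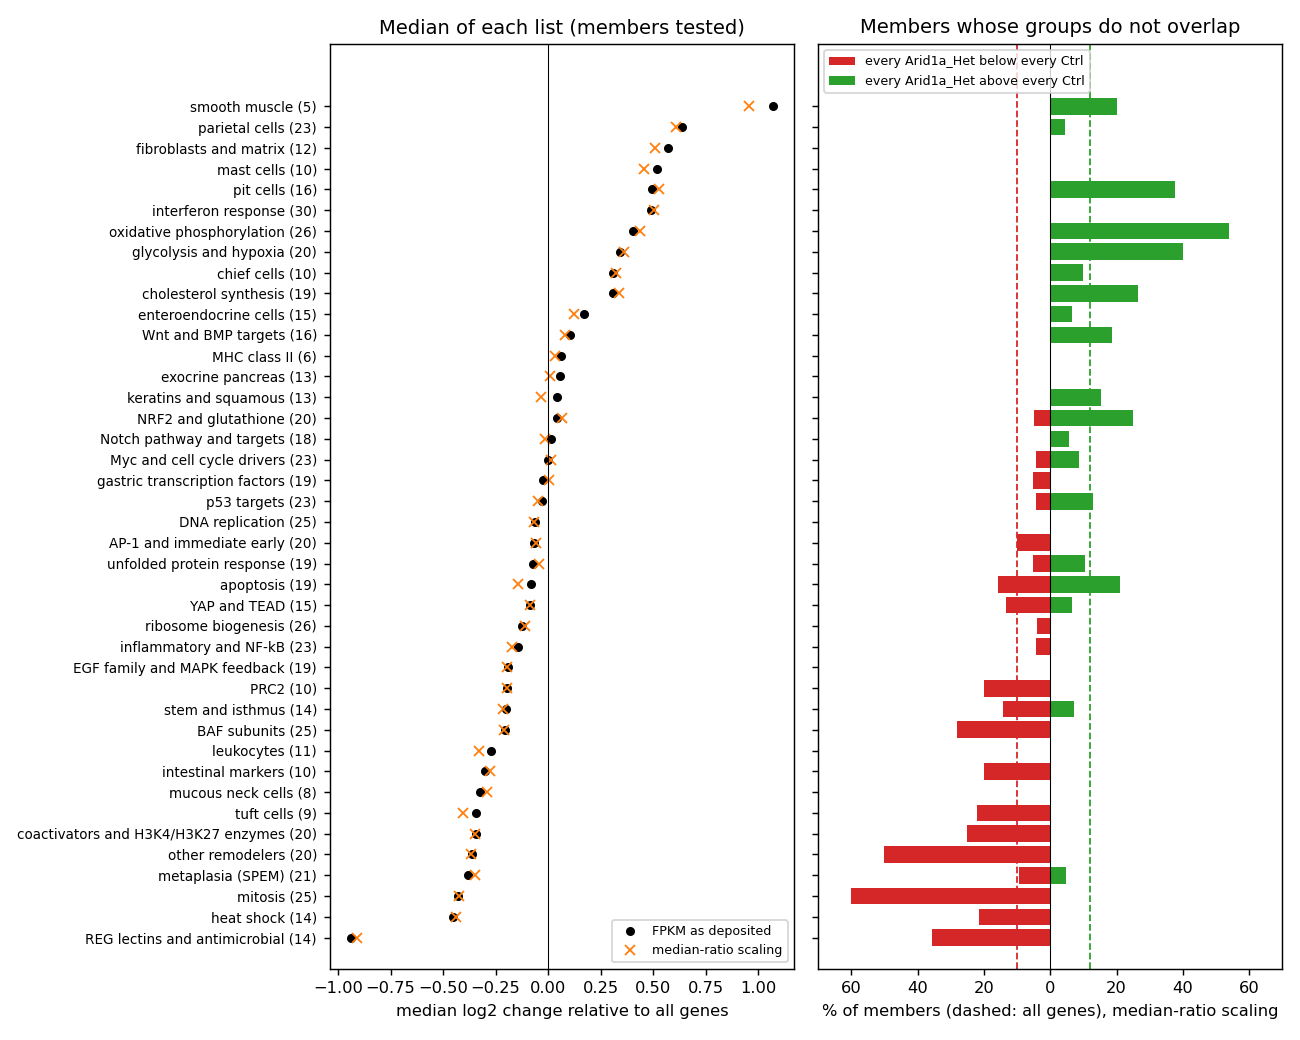
Left, the median log2 change between Arid1a_Het and Ctrl of each gene list with at least 5 tested members (number in brackets), relative to the median of all genes, as deposited (points) and with median-ratio scaling (crosses). Right, the percentage of each list whose groups did not overlap with median-ratio scaling, lower to the left and higher to the right, with dashed lines at 9.98% and 12.1% for all genes. REG lectins and antimicrobial genes have the lowest median of the lists drawn (-0.94), and the medians under both scalings lie close together. Median-ratio scaling uses 1 factor per library, and both medians are relative to all genes, so this closeness is largely set by the method.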

How the data were processed

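The authors' deposited table holds FPKM for 18423 genes in 9 poly(A) libraries made with a stranded kit, per the labels' protocols. STAR 2.4.2a and the builds GRCm38 and mm10 are named in the submitters' processing notes. The counting tool and its handling of strand and of reads with several matches are not given in the sources used here. Since FPKM is relative to all reads, a few very high genes such as Pgc lower every other value in a library.

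Whole reads were worked out from the FPKM steps (whole for all 18423 genes within 0.01) and gave depths of 22651385 to 29478481 reads per library. Groups follow the genotype labels. limma 3.58.1 in R 4.3.3 (lmFit, eBayes with a trend) was run on log2(FPKM + 1) in 1 fit of 3 group means over all 9 libraries, on the 11209 genes that reached 1 FPKM in 3 or more libraries, with Benjamini-Hochberg adjustment and a threshold of 0.05. Log2 changes are on this scale and understate low genes. Counts of non-overlapping groups compare the 3 libraries of each genotype. On simulated data the fit recovered 48% of genes changed by 1 and 88% of those changed by 2 on the log2 scale, with 7 calls among unchanged genes of 11209. The simulated noise was independent for each gene and library, without the shifts shared by many genes of a library that these data show. Symbols were placed on GENCODE M21 for 18301 of 18423 genes.

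The genotypes, the 43 gene lists and the tests were chosen with earlier results of these data known. Named genes are Arid1a, called genes, the 10 of lowest p per direction whose groups do not overlap (without unnamed transcripts, small RNAs and pseudogenes), up to 4 of lowest p per list and of small RNA loci. Others, chosen after their values were seen, are Arid1b, Arid2, Smarca4, Smarcd3, Il1b, Lrg1, Lbp, Csf3r, Cxcr2, Trem1, Mab21l3, Ces1d, Slc5a5, Gast, Prss2, Nrarp, Hes1, Notch1, Tpt1 and Atp4a. Alternatives were other pseudocounts, filters and scalings, array weights, limma voom, a replicate block, each library left out, and, added after seeing the data, median-ratio scaling with only the 2 groups. Same-numbered libraries of the 2 genotypes had correlations of deviations of -0.151, 0.467 and -0.0202, so the numbers were not taken as pairs.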

Additional observations from a re-analysis of the deposited data

How the results depend on the processing

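The number of genes that passed as lower, 1, was 0 with a pseudocount of 0.1 or 0.01 and with limma voom, 2 with a minimum FPKM of 5 or quantile normalization, 4 with no filter, 4 in a fit of the 6 libraries alone, and 6 with array weights. It was also 2 with median-ratio scaling and only the 2 groups in the fit, a setting chosen after seeing the data, where Rpl3 passed beside Mir7688. The number that passed as higher, 0, was 1 under array weights and 1 in the fit of 6 libraries. With the replicate block 2 genes passed as lower, and with the replicate block and only the 2 groups 5 as lower and 1 as higher. The pairing by number that this block assumes is not given in the labels, and only library 2 correlated best with its own number. Leaving out 1 library gave 1 to 20 lower and 0 to 2 higher genes, the highest without Arid1a_Het 3, with 3 lower without WT 3 and 2 without Arid1a_Het 1. List members that passed as lower, 0, were 0 to 10 when 1 library was left out, and 8 without both Ctrl 1 and Arid1a_Het 3, where 21 genes passed in all. Arid1a stayed lower throughout, at a ratio of 0.567 with median-ratio scaling and 0.564 with quantile normalization, and its replicate block gave an exact sign-flip permutation p of 0.25, the smallest that 3 pairs allow. Smarca4 changed sign with median-ratio scaling (0.048, with all 9 libraries or only the 2 groups) and Gast without Arid1a_Het 2 (-4.69 to 1.02 over libraries left out). Others near 0 also did. Notch1, main log2 change -0.11, was 0.084 with median-ratio scaling in both of these fits, 0.12 with quantile normalization and 0.020 with array weights. Hes1 lay between -0.051 and 0.28 and Tpt1 between -0.018 and 0.23 over libraries left out, and at -0.024 and -0.00908 without both Ctrl 1 and Arid1a_Het 3. Of the 41 list medians, 17 changed sign when some 1 library of the 2 genotypes was left out and 19 more moved by over 1.5 times. Over all 23 alternatives 31 values of list medians moved by more than the spread between replicates and 957 did not. Part of the 957 could not move. On FPKM as deposited, fits with only the 2 groups, with the replicate block or without 1 WT library keep the same difference of means. The count is therefore no measure of stability. The causes of the moves were not tested. On simulated data without shifts shared across a library, 48% of changes of 1 and 88% of changes of 2 on the log2 scale were recovered. Changes of either size can therefore be missed, and the shares need not hold for these libraries.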

Other observations

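Endocrine markers of the gland had gastrin as the gene of highest mean FPKM. The list summed to 164.7, 317.8 and 2022 RPM in Arid1a_Het and 1025, 477.0 and 223.0 in Ctrl. Its sum was highest in Arid1a_Het 3 and Ctrl 1, the libraries with the most gastrin. Arid1a_Het 2 had almost no gastrin, so its sum rested on other markers. Among 15 tested enteroendocrine markers 1 was apart as higher. Mucous neck cell markers, led by Tff2, summed to 4482, 5406 and 8357 RPM against 14020, 7337 and 5513, with 0 of 8 apart and a median 0.33 below that of all genes, which relative to all genes was 0.096 without Ctrl 1. Mast cell genes, led by the protease Mcpt2, summed to 625.1, 521.4 and 624.6 RPM against 352.3, 681.3 and 603.7, with 0 of 10 apart. Endothelial genes summed to 25.71, 35.32 and 48.27 RPM against 34.79, 25.68 and 29.99, and smooth muscle genes to 38.46, 90.59 and 58.18 against 45.07, 30.94 and 36.77. Erythroid genes reached 0.6287, 19.84 and 20.79 RPM against 3.267, 2.578 and 4.666. Ribosome biogenesis genes had 4 of 26 apart as lower, 1 with median-ratio scaling, and a median 0.12 below that of all genes (-0.019 relative to all genes without Arid1a_Het 2). Apoptosis genes had 7 of 19 apart as lower as deposited, but 3 lower and 4 higher with median-ratio scaling.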
